A study of Mus musculus with 12 samples.

Results

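The comparison was between germ cell precursors (primordial germ cells) from female mouse embryos at E14.5, homozygous for 1 of 2 altered forms of Tet1. The V cells (genotype Tet1V/V) carried a form described as stalling at 5-hydroxymethylcytosine (5hmC), and the HxD cells (genotype Tet1HxD/HxD) carried a form described as catalytically dead. They gave 3 RNA sequencing libraries each, 6 of the 12 in the series, and were chosen by their names in the count table. The other 6 libraries were 3 from wild-type cells (WT) and 3 from Tet1-/- cells (KO). Cells of every group were sorted by an Oct4-GFP reporter, and each library was made from poly(A) RNA of 5000 cells. The labels name no Cre driver, do not say which residues the V and HxD alleles change, and do not say whether libraries came from separate embryos or pools. The p-values thus rest on library-to-library spread, part of which may be technical. The comparison asks what transcripts differ when TET1 can make 5hmC but not its further products, against when it can make neither.

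TET enzymes oxidize 5-methylcytosine at CpG sites to 5hmC, and then to 5-formylcytosine and 5-carboxylcytosine. The later products are removed by the glycosylase TDG and base excision repair, while 5hmC can also be diluted by DNA replication because the maintenance methyltransferase copies it poorly. Primordial germ cells lose most DNA methylation as they colonize the gonad, and TET1 is known there for a role at germline genes whose promoters are methylated in somatic cells. In female embryos these cells leave mitosis and enter meiosis at about the stage sampled, with Stra8 as the main switch and Dazl as the gene that makes them competent for it. TET1 also has roles at chromatin that do not need its catalytic activity, through partners such as SIN3A and OGT.

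The CpG sites at which the alleles could act are shown for 3 germline genes and for the gene with the smallest p-value of the comparison. Each line gives the 250 bases before a RefSeq transcription start, 5′ to 3′ on the strand of the gene, in assembly GRCm38.p6. Every CpG is in capitals. Methylation and 5hmC at these sites were not measured in these files.
Mael, chr1:166238745-166238994, minus strand: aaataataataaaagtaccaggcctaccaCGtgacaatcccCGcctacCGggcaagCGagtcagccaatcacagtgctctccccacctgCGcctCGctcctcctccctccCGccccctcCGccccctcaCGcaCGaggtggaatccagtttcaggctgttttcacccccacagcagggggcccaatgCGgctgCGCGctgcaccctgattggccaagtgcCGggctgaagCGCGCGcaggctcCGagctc
Dazl, chr17:50293621-50293870, minus strand: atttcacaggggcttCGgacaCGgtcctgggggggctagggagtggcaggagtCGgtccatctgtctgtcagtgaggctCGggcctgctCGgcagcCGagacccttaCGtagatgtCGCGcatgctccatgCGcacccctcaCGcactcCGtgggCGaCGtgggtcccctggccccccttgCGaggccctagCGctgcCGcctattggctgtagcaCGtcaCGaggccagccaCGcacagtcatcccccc
Stra8, chr6:34920698-34920947, plus strand: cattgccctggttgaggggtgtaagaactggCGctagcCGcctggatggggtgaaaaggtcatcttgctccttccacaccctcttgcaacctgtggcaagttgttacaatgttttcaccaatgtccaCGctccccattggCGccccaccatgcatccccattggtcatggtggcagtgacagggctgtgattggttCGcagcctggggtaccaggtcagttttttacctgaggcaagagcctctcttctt
Galnt11, first of its 2 starts, chr5:25222622-25222871, plus strand: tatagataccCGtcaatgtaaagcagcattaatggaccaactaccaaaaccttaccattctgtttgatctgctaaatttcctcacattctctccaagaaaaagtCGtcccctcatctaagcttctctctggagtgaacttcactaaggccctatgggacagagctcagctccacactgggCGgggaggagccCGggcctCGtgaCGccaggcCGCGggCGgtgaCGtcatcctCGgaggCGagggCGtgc
The Mael window held 18 CpG sites, the Dazl window 20, the Stra8 window 5 and this Galnt11 window 13. The median over the first windows of 11860 tested genes was 15. Mael and Dazl thus had more sites than the typical tested gene, and Stra8 had fewer. The Mael window also held 1 copy of CACGTG, the E-box at which the MGA and MAX subunits of the germline gene repressor PRC1.6 are known to bind. That motif reads the same on both strands and was in 14 of the 42 windows of germline genes methylated in somatic cells (33.3%), in 8.21% of the tested genes' windows and in 6.02% of all 32851 windows of the same length. The motif is a description of the sequence and not evidence of binding.

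Levels are given as CPM, counts scaled to library size after TMM normalization, and differences as log2 fold changes, V minus HxD, from edgeR. No gene differed between V and HxD at a Benjamini-Hochberg adjusted p under 0.05 in edgeR's quasi-likelihood test (0 of 16166 genes, 0%). At an unadjusted p under 0.05 there were 326 genes (2.02%), 146 higher and 180 lower in V, and limma-voom called 0 genes and DESeq2 17. The 3 V libraries lay wholly above or below the 3 HxD libraries for 1471 genes (9.1%), 732 higher and 739 lower. If no gene differed, a share of about 0.05 would be expected under that p. About 0.1 would be expected without overlap when 3 libraries are set against 3. The shares seen were smaller, so neither measure by itself marks a gene named below as different. A missed threshold does not show that the 2 groups were alike, so the 95% interval of each difference was read too. It lay wholly within a 2-fold difference in either direction for 6927 genes (42.8%).

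Among the 10335 genes at 5 CPM or more on average over the 6 libraries, the median log2 fold change was 0.004, and from the 5th to the 95th percentile the values ran from -0.54 to 0.51. Of these, 6919 (66.9%) had an interval within 2-fold. How narrow the interval was depended on the level. At 100 CPM or more the interval reached a median of 0.39 to either side on the log2 scale, and 99.3% of 2767 genes were within 2-fold. That reach was 0.65 between 20 and 50 CPM, with 72.3% within 2-fold, and 1.22 between 5 and 20 CPM, with 6.1%. Below 5 CPM the data did not limit the difference to a useful range, since from 1 to 5 CPM the reach was 3.59.

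**Figure D1:**
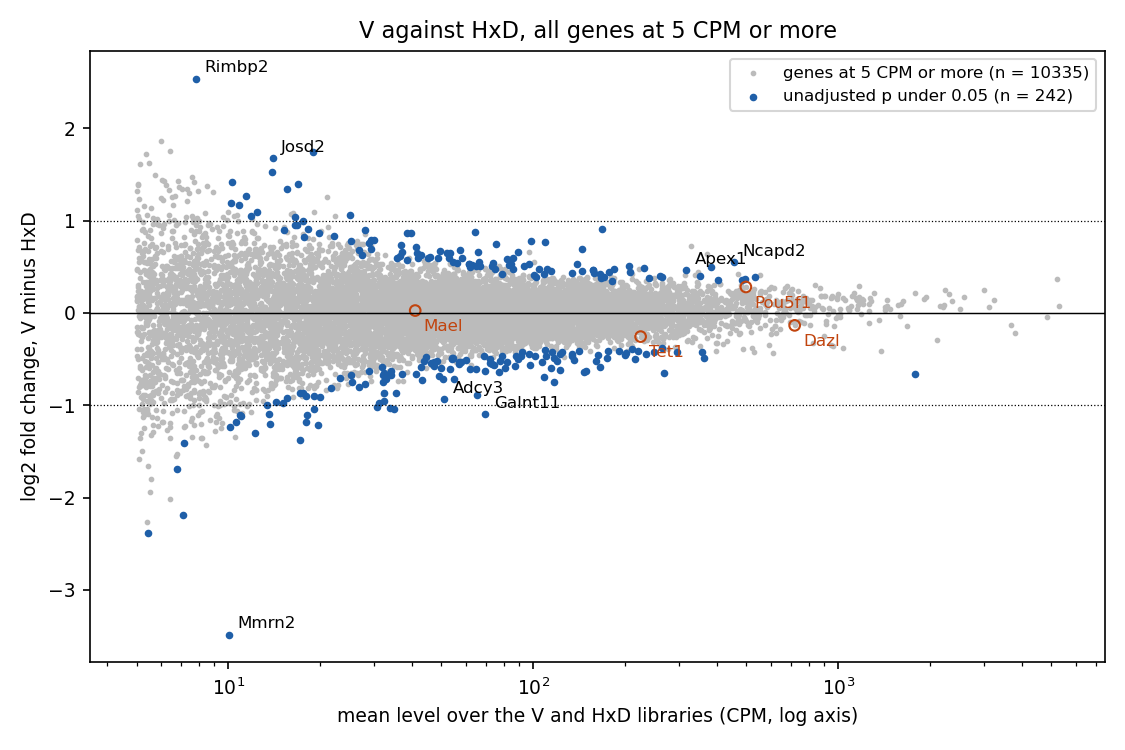
Log2 fold change, V minus HxD, against the mean level over the 6 libraries (CPM, log axis) for the 10335 genes at 5 CPM or more; blue points have an unadjusted p under 0.05, dotted lines mark a 2-fold difference, and orange rings mark 4 genes described in the text. The cloud centres on 0 and widens to the left, and Mael, Dazl, Tet1 and Pou5f1 sit close to the middle.

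V and HxD libraries lay about as far apart as libraries of the same group. At 5 CPM or more, the median absolute log2 difference between a V and an HxD library ranged from 0.19 to 0.39 over the 9 pairs, with a median of 0.30. It ranged from 0.23 to 0.37 over the 3 pairs within HxD (median 0.35) and from 0.23 to 0.33 over the 3 pairs within V (median 0.31). Total counts were 18471158 to 29495313 in V and 24243492 to 28410605 in HxD. The share of low genes at 0 differed more: of 2936 genes at 1 to 5 CPM, 43.7% were at 0 in HxD1 and 24.4% in V2, against 1.77% to 9.81% in the other 4 libraries. Germ cell markers summed to 4770 to 5650 CPM in V and 4880 to 5110 CPM in HxD, with all 15 present. In bulk RNA, fewer cells of a type and less RNA per cell cannot be told apart.

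Tet1 itself was close in both groups. It stood at 226, 197 and 192 CPM in V1, V2 and V3 and at 227, 222 and 286 CPM in HxD1, HxD2 and HxD3. The groups overlapped, with HxD3 highest, and the log2 fold change was -0.26 ± 0.24 (SE), with a 95% interval from -0.75 to 0.23. The counts cover the whole gene, so they check neither allele.
Tet2 was at 37.7, 37.1 and 41.2 CPM in V and at 26.4, 29.4 and 101 CPM in HxD, where HxD3 alone set the higher mean. Tet3 stayed under 20 CPM in all 6 libraries, from 2.90 to 11.3 in V and from 6.50 to 17.6 in HxD. Neither related dioxygenase therefore stood consistently higher in 1 group.

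Of 15 tested genes for TET enzymes and TET1 partners, none was called, 12 had an interval within 2-fold, and the median log2 fold change was 0.06, beside 0.01 over all genes tested. The co-repressor scaffold Sin3a was at 331 ± 50.1 CPM in V and 324 ± 27.8 in HxD (SD, n = 3), a log2 difference of 0.03. Ogt, which attaches N-acetylglucosamine to TET partners, had one of 0.10. Hcfc1, a chromatin cofactor processed by OGT, was the 1 member whose groups did not overlap. It was at 490, 518 and 551 CPM in V and at 599, 669 and 718 CPM in HxD, a log2 fold change of -0.35 ± 0.20 with an interval from -0.76 to 0.06.

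The methylation machinery was measured tightly. None of 13 tested genes was called, 11 had an interval within 2-fold, and the list's median was 0.00. Dnmt1, the maintenance methyltransferase, was at 690, 690 and 690 CPM in V and at 778, 746 and 698 CPM in HxD. All 3 HxD libraries were thus above all 3 V libraries, by a log2 difference of only -0.10 (interval -0.43 to 0.23). Its recruiter Uhrf1 was at 51.8 ± 6.22 CPM in V and 51.7 ± 5.93 in HxD (SD, n = 3), with a log2 fold change of 0.00 and an interval from -0.46 to 0.46. The de novo enzyme gene Dnmt3a had a value of -0.13. Dnmt3b was low, at 2.08 to 10.2 CPM in V and 4.02 to 13.7 in HxD, so its interval from -1.57 to 0.98 was wide.

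Base excision repair genes, which act on the later oxidation products that neither form is described as making, leaned toward V. None of 25 was called, while 17 had a positive log2 fold change and the median was 0.20. The groups did not overlap in 5 (20%), beside 9.1% of all genes in either direction and 732 of 16166 genes with V higher. All V libraries were above all HxD libraries in these 5. These were Apex1, Ogg1, Gadd45a, Gadd45g and Tdg. Apex1, the endonuclease that cuts the abasic site, was at 383, 341 and 379 CPM in V and at 243, 309 and 247 CPM in HxD. Its log2 fold change was 0.47 ± 0.18, with an interval from 0.10 to 0.83 (edgeR, unadjusted p = 0.0144, adjusted p = 1). Tdg, whose product excises the later oxidation products, was at 16.6, 16.9 and 16.1 CPM in V and at 10.01, 14.46 and 13.66 CPM in HxD. With an interval from -0.46 to 1.21 that difference of 0.38 could not be told from 0. Parp1, the abundant sensor of strand breaks, had a log2 fold change of 0.02 (interval -0.30 to 0.35). The list's median stayed between 0.06 and 0.23 over 22 other ways of processing the counts. As median deviation from each gene's mean over all 12 libraries, the list stood at 0.15, 0.06 and 0.13 in V1, V2 and V3. It stood at -0.33, -0.03 and -0.03 in HxD1, HxD2 and HxD3. HxD1, the V or HxD library with the most low genes at 0, was thus far the lowest. The list's median transcript length was 2528 bases, against 3243 over all genes tested. The part of HxD1 and of length in the lean was not tested beyond the other ways of processing.

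Germline genes carrying somatic methylation are the genes at which TET1 is best known in these cells. None of 48 tested members was called, and their median log2 fold change was -0.09, with 19 positive; the other ways of processing moved that median across 0, from -0.25 to 0.04. In 3 (6.25%, beside 9.1% of all genes) the groups did not overlap. An interval within 2-fold was reached by 25 of the 48, and 42 had at least 5 CPM.
Mael, which acts in transposon silencing, was at 30.8, 27.7 and 65.6 CPM in V and at 40.3, 35.2 and 46.6 CPM in HxD. The V libraries spread on both sides of the HxD libraries. The log2 fold change was 0.03 ± 0.27, with an interval from -0.52 to 0.57, and the mean in WT was 169.5 CPM. Dazl, an RNA-binding protein, was at 553, 744 and 760 CPM in V and at 901, 684 and 675 CPM in HxD, again with overlap. Its log2 fold change was -0.14 ± 0.19 (interval -0.53 to 0.25), and the WT mean was 1598 CPM. Tex101, a germ cell surface protein gene, ran from 7.47 to 26.9 CPM in V and from 10.8 to 20.5 CPM in HxD, so at that level the interval, from -0.62 to 1.25, left room for a 2-fold difference. For Mael and Dazl it did not.
Tdrd12, of the piRNA pathway, had the smallest p of the list. It was at 79.9, 72.7 and 83.3 CPM in V and at 42.4, 55.6 and 63.0 CPM in HxD, without overlap. The log2 fold change was 0.55 ± 0.22 (interval 0.10 to 1.005, edgeR, unadjusted p = 0.0184, adjusted p = 1). Asz1, another piRNA pathway gene, was also without overlap, at 58.7 to 70.2 CPM in V and 37.1 to 56.6 CPM in HxD. Tdrd9, which acts in the same pathway, had a value of -0.62 and Tdrd1 one of -0.41, so the members did not lean 1 way. Over the 27 tested piRNA genes the median was -0.10.

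Genes of meiotic entry had a median log2 fold change of -0.13 over 16 tested members, of which 4 were positive and none was called. Stra8 was at 45.8, 177 and 145 CPM in V and at 169, 175 and 74.6 CPM in HxD. V1 was the lowest and HxD3 the next lowest, and the groups overlapped widely. The log2 fold change of -0.18 ± 0.42 had an interval from -1.04 to 0.67, so a difference of a factor of 2 lay just inside it. Rec8, the meiotic cohesin subunit, was at 119, 221 and 219 CPM in V and at 278, 234 and 178 CPM in HxD (log2 -0.30, interval -0.83 to 0.22). Gm4969, the older symbol of Meiosin, the partner of STRA8, had a log2 fold change of 0.03.
Structural genes of the synaptonemal complex had values on both sides of 0. Sycp3 was at 20.7, 43.0 and 45.7 CPM in V and at 19.03, 27.3 and 20.1 CPM in HxD (log2 0.72 ± 0.43, interval -0.17 to 1.61). Sycp1 was at 38.5, 28.4 and 83.5 CPM in V and at 90.6, 57.3 and 75.4 CPM in HxD (log2 -0.57, interval -1.25 to 0.11). Both pairs of groups overlapped, and the median over 15 members was -0.04. Recombination genes had a median of 0.04 over 39 members, of which 17 had an interval within 2-fold. Brca2, which loads the strand exchange proteins, was at 166, 190 and 198 CPM in V and at 228, 206 and 276 CPM in HxD, just without overlap (log2 -0.36, interval -0.73 to 0.02).

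**Figure D2:**
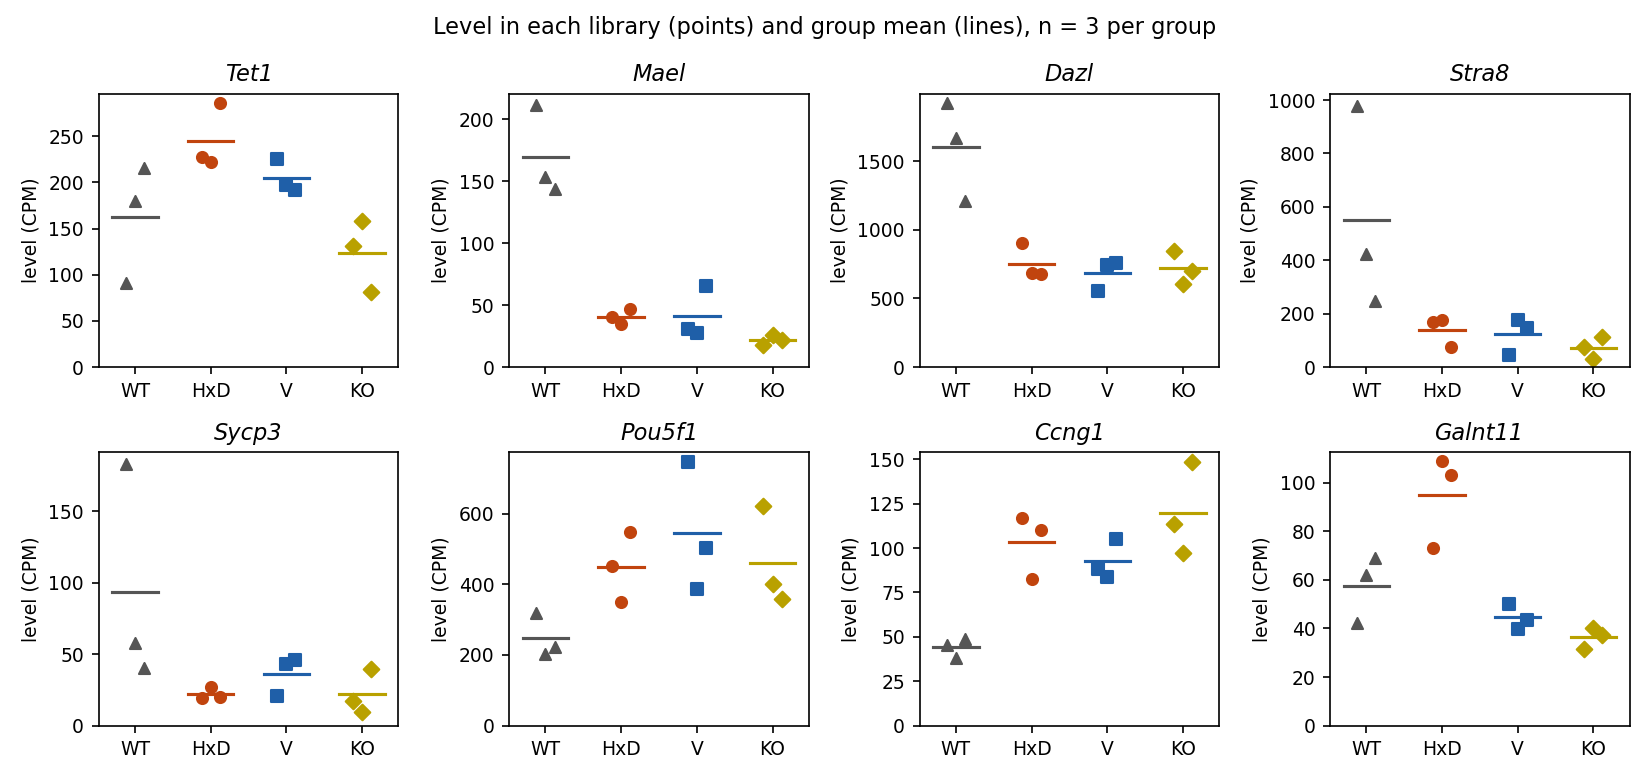
Level in CPM of 8 genes in each of the 3 libraries per group (points) with the group mean (line), on linear axes from 0. V and HxD overlap for Tet1, Mael, Dazl, Stra8, Sycp3, Pou5f1 and Ccng1, and the 3 V libraries are below the 3 HxD libraries for Galnt11.

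Among the V libraries, V1 stood apart in the germline and meiotic lists. As the median deviation of the members from each gene's mean over all 12 libraries, the germline list stood at -0.61 in V1, -0.06 in V2 and 0.09 in V3, and at 0.21, -0.17 and -0.19 in the HxD libraries. For meiotic entry the values were -0.53, -0.02 and 0.11 in V and 0.28, 0.02 and -0.02 in HxD. Pluripotency factors showed the reverse order, at 0.47 in V1 against 0.00 and 0.14 in V2 and V3, and at -0.05, 0.08 and 0.13 in HxD. V1 thus had the lowest germline and meiotic levels and the highest pluripotency levels of the 6 libraries. It also had the highest summed levels of blood cell markers (31.5 CPM, against 0.996 to 11.8 in the other 5) and of pregranulosa markers (91.3 CPM, against 24.0 to 49.5), and their part in these differences was not tested.

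Pluripotency factors, which germ cells keep until meiosis, had a median log2 fold change of 0.09 over 26 tested genes, with 19 positive, 21 within 2-fold and none called. That median, too, crossed 0 under other ways of processing (-0.02 to 0.21). Pou5f1, the gene of the sorting reporter, was at 747, 388 and 504 CPM in V and at 450, 350 and 548 CPM in HxD. The groups overlapped, and the log2 fold change was 0.28 ± 0.23 (interval -0.19 to 0.75). Nanog was at 121 ± 33.2 CPM in V and 117 ± 10.1 in HxD (SD, n = 3), a log2 difference of 0.05 with an interval from -0.42 to 0.53. Sox2 had a value of 0.20 (interval -0.20 to 0.60). L1td1, an RNA-binding protein of pluripotent cells, was without overlap, at 243, 203 and 193 CPM in V and at 170, 127 and 165 CPM in HxD. Its log2 fold change was 0.47 (interval 0.02 to 0.92, edgeR, unadjusted p = 0.0404, adjusted p = 1).
For 27 early germ cell genes the median was -0.03. Prdm1, which specifies germ cells, was at 96.0 ± 14.4 CPM in V and 103 ± 17.0 in HxD (SD, n = 3), and Dppa3 at 531 ± 117 and 441 ± 67.1. Itga6, an integrin subunit, was the 1 member with an unadjusted p under 0.05, at 34.8 to 39.4 CPM in V and 41.1 to 65.1 in HxD (log2 -0.54, interval -1.06 to -0.02). The 19 tested oocyte genes had a median of -0.03. Sub1, a transcription coactivator, overlapped at 521 to 650 CPM in V and 414 to 530 in HxD.

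**Figure D3:**
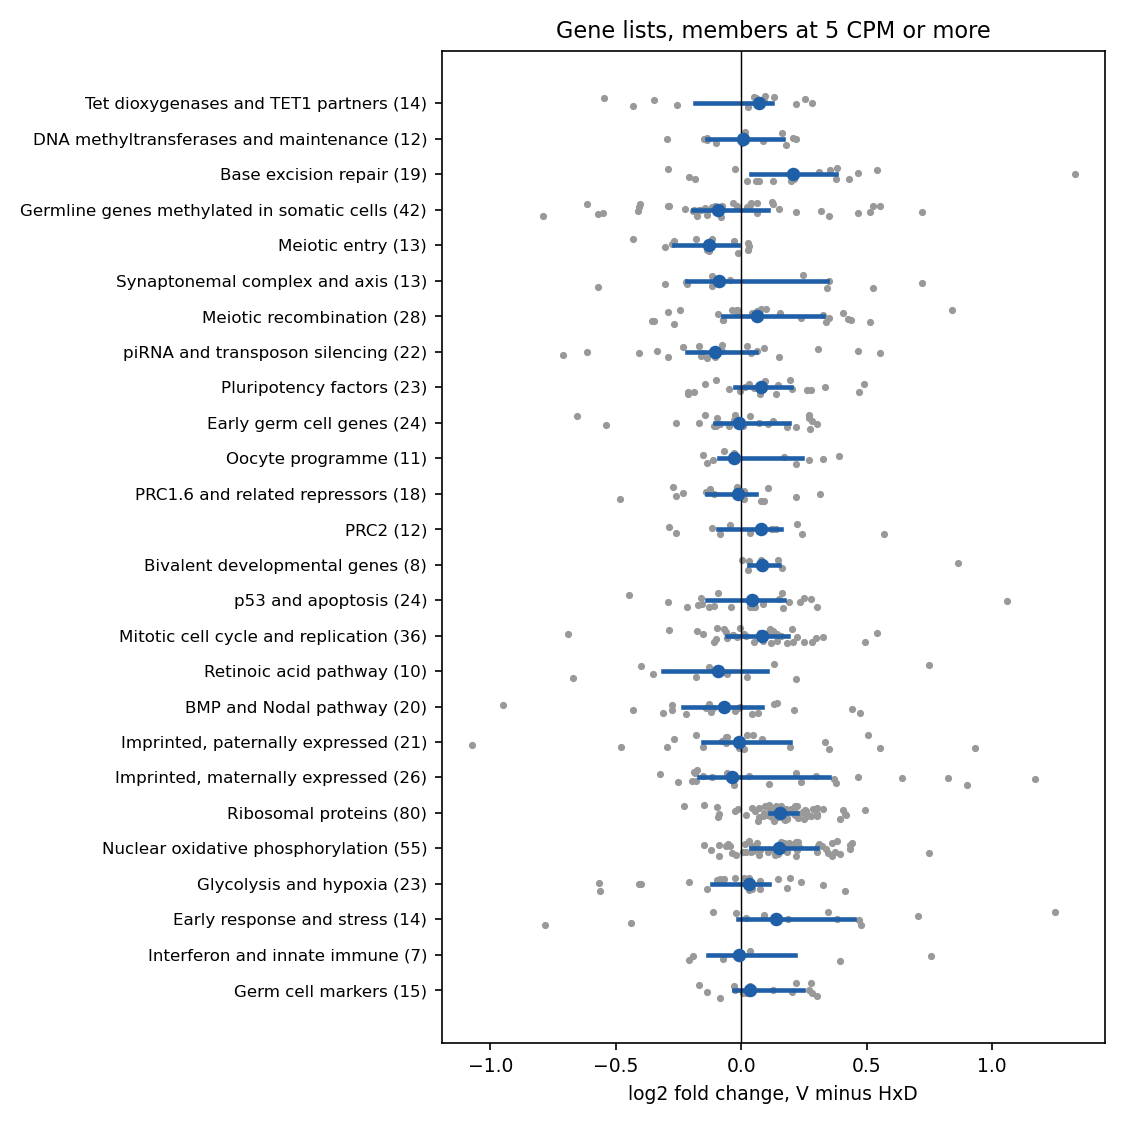
Log2 fold change, V minus HxD, of the members at 5 CPM or more of each gene list with at least 7 such members (grey points), with the median (blue dot) and the interquartile range of the members (blue bar); the number of members is in brackets. Most medians lie near 0, with base excision repair, ribosomal protein and oxidative phosphorylation genes farthest to the right among lists with 15 members or more.

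Chromatin regulators of germline genes were close. The 18 members of PRC1.6 and related repressors had a median of -0.01, and 17 had an interval within 2-fold. Pcgf6, which defines the complex, was at 86.3 ± 9.43 CPM in V and 104 ± 13.95 in HxD (SD, n = 3), and Mga at 265 ± 35.0 and 311 ± 70.6. For PRC2, which TET1 is known to meet at bivalent promoters, the median was 0.08 over 12 members, with 11 within 2-fold. Its catalytic subunit gene Ezh2 was at 260, 250 and 255 CPM in V and at 244, 231 and 228 CPM in HxD, without overlap but only 0.12 apart on the log2 scale (interval -0.21 to 0.45). The paralogue Ezh1 was on the other side, at 48.7, 39.4 and 50.9 CPM in V and at 57.7, 56.0 and 55.9 CPM in HxD (log2 -0.29, interval -0.75 to 0.17). With Rbbp7, these were the 3 of 12 members without overlap (25%, beside 9.1% of all genes), 2 higher and 1 lower in V. Of 25 tested bivalent developmental genes, 8 reached 5 CPM, with a median of 0.08 among those.

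Imprinted genes, whose marks are erased in germ cells, had medians near 0. The 31 tested paternally expressed genes had a median of -0.01 and the 36 maternally expressed genes one of -0.04. The second median ran from -0.04 to 0.16 over other ways of processing. Of the 36, 17 were positive and none was called. An unadjusted p under 0.05 (edgeR) was reached by 3 (8.33%, beside 2.02% of all genes), all higher in V. Without overlap were also 3 (8.33%, beside 9.1% of all genes), all higher in V. Peg3 was at 392 ± 59.0 CPM in V and 389 ± 109 in HxD (SD, n = 3), with a log2 fold change of 0.01 and an interval from -0.52 to 0.54. H19 had a value of -0.18 (interval -0.67 to 0.30). Grb10, a growth factor receptor adaptor, was at 23.5, 45.4 and 40.3 CPM in V and at 10.6, 24.6 and 23.4 CPM in HxD. V2 and V3 stood above the rest, and V1 lay among the HxD libraries (log2 0.90, interval 0.11 to 1.70, edgeR, unadjusted p = 0.0278, adjusted p = 1). Asb4 was without overlap, at 17.7 to 29.5 CPM in V and 10.7 to 16.5 in HxD. Dlk1, also without overlap, was at 1.97, 3.22 and 4.92 CPM in V and at 6.80, 7.501 and 7.01 CPM in HxD, a level at which the interval ran from -2.98 to 0.83.

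Cell cycle and survival genes were mostly close too. Of 38 mitotic and replication genes, 33 had an interval within 2-fold and the median was 0.10. E2f1, a driver of S phase, was at 185, 190 and 169 CPM in V and at 157, 140 and 138 CPM in HxD, without overlap (log2 0.33, interval -0.03 to 0.68). Cdk1, the mitotic kinase, was likewise without overlap, at 145 to 167 CPM in V and 116 to 141 in HxD. For 28 genes of p53 signalling and apoptosis the median was 0.04, with Ccng1, a p53 target, at 88.4, 83.9 and 105 CPM in V and at 117, 82.7 and 110 CPM in HxD. Its interval ran from -0.58 to 0.26. Casp9, the initiator caspase, was without overlap, at 23.2 to 26.95 CPM in V and 31.6 to 37.2 in HxD.
Signalling lists showed single genes rather than a direction. The BMP and Nodal list had a median of -0.02 over 27 genes, and none was called. Without overlap were 6 (22.2%, beside 9.1% of all genes), 2 higher and 4 lower in V. An unadjusted p under 0.05 (edgeR) was reached by 3 (11.1%, beside 2.02% of all genes), all higher in V. Id3, a BMP target, was at 175, 205 and 230 CPM in V and at 138, 171 and 140 CPM in HxD, without overlap (log2 0.44, interval 0.08 to 0.80, edgeR, unadjusted p = 0.0185, adjusted p = 1). Retinoic acid pathway genes had a median of 0.02 over 15 members, of which 3 (20%) did not overlap, 2 higher and 1 lower in V.

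Ribosomal protein and oxidative phosphorylation genes had small positive differences in nearly all members. Of 80 ribosomal protein genes, 73 were positive, with a median of 0.16, and of 55 nuclear genes of oxidative phosphorylation 46 were positive, with a median of 0.15. None was called, and 79 and 52 of them had an interval within 2-fold. Over the other ways of processing, the medians ran from 0.02 to 0.31 and from 0.04 to 0.25. Rps13 was at 511, 339 and 490 CPM in V and at 267, 394 and 291 CPM in HxD, with overlap because V2 was lower than HxD2. That held for the whole ribosomal list, whose median deviations were 0.24, -0.22 and 0.27 in V and -0.35, 0.21 and -0.14 in HxD.
These transcripts are short, with a median length of 1054 and 1231 bases against 3243 over all genes tested, and length moved with the comparison. From the shortest to the longest decile of genes at 5 CPM or more, the median log2 fold change passed from 0.15 to -0.15. This pattern was looked for after the values had been seen. The difference between the longest and the shortest decile was -0.35, 0.01 and -0.38 in V1, V2 and V3, and 0.17, -0.19 and 0.20 in HxD1, HxD2 and HxD3, so V2 and HxD2 overlapped. The mean gap differed by -0.30 between groups (two-sided exact permutation test, p = 0.2, where 0.1 is the smallest p that 3 against 3 allows). Libraries of the same genotype in the other groups differed as much, from -0.45 to 0.24 in WT and from -0.21 to 0.54 in KO. The part of length in the values of the short genes was not tested beyond a fit with a length offset, which also called 0 genes. No such gradient appeared with the CpG content of the promoter, whose quartiles of genes had medians from -0.003 to 0.007, or with the GC content of the transcript, from -0.009 to 0.025.

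**Figure D4:**
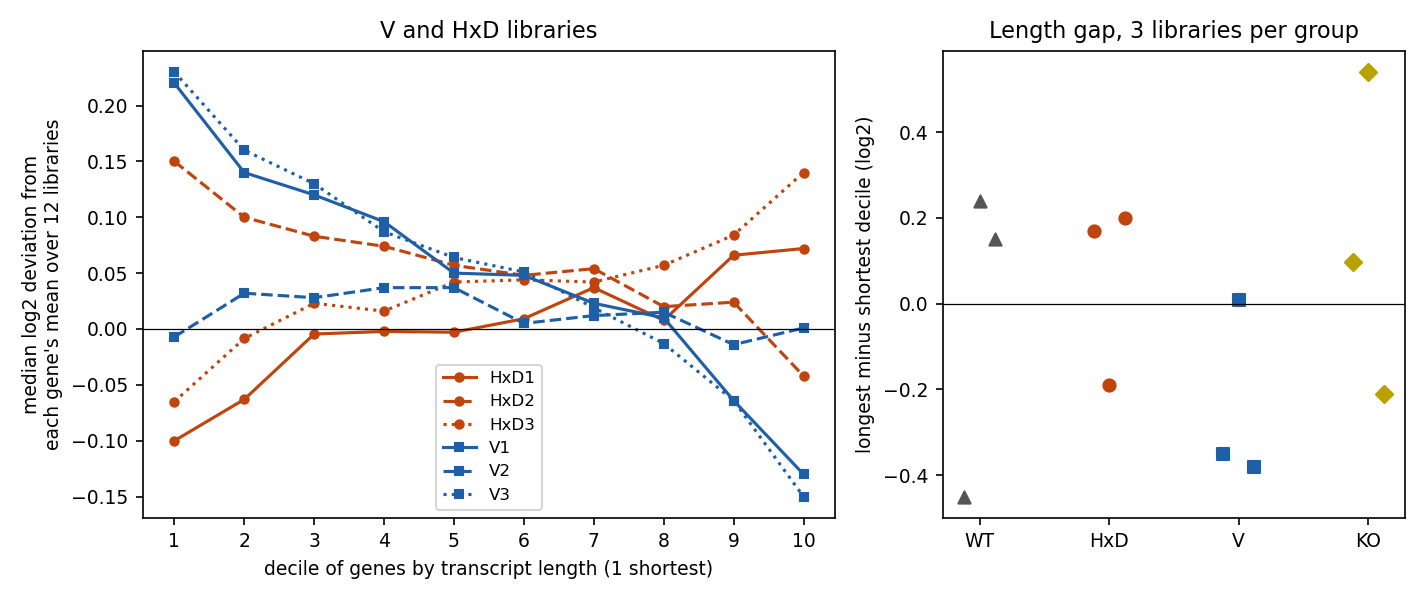
Left, the median log2 deviation of genes from their mean over 12 libraries, by decile of transcript length, in the V (blue squares) and HxD (orange circles) libraries; right, the longest minus the shortest decile in each library of the 4 groups. V1 and V3 slope down, HxD1 and HxD3 slope up, and V2 and HxD2 do not follow the other libraries of their group.

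The genes that stood farthest apart are described from the 12 in each direction with the smallest p among named genes without overlap. None of the 24 was called by edgeR in the fit to all 12 libraries, and DESeq2 called 2 of them, Galnt11 and Fam126a. Galnt11, a glycosyltransferase that starts O-linked chains, had the smallest p of all genes. It was at 50.2, 39.8 and 43.6 CPM in V and at 73.0, 109 and 103 CPM in HxD, a log2 fold change of -1.09 ± 0.24 with an interval from -1.58 to -0.61 (edgeR, unadjusted p = 8.48e-05, adjusted p = 1). Its mean was 57.6 CPM in WT and 36.5 CPM in KO, so the HxD libraries were the high ones. DESeq2 called it, with an adjusted p of 0.00706 and the same fold change, and over 22 other ways of processing the value ran from -1.25 to -0.98. Galnt11 was also called by edgeR in the fit that left out HxD1, KO1 and KO3, at a log2 fold change of -1.24. Its promoter sequence is shown above.
Adcy3, an adenylate cyclase, was at 36.7, 35.2 and 33.3 CPM in V and at 93.6, 55.8 and 51.4 CPM in HxD (log2 -0.93, interval -1.44 to -0.42). Ncoa6, a nuclear receptor coactivator, was at 108, 55.2 and 98.4 CPM in V and at 164, 123 and 152 CPM in HxD (log2 -0.75). Fam126a, which anchors a lipid kinase at the plasma membrane, was at 54.6, 51.5 and 57.0 CPM in V and at 84.9, 82.7 and 84.8 CPM in HxD. It had the least spread within groups of these genes, with a log2 fold change of -0.63 ± 0.20 (edgeR, unadjusted p = 0.0032, adjusted p = 1), and DESeq2 called it (adjusted p = 0.0461). The other 8 that were lower in V were Prr12, Vps13d, Cep350, Foxj2, Sh3d19, Dusp16, Pxdn and Bahcc1 with log2 fold changes from -1.05 to -0.58.
Cdca3, which promotes entry into mitosis, had the smallest p of those higher in V. It was at 213, 150 and 174 CPM in V and at 128, 113 and 90.5 CPM in HxD (log2 0.70, interval 0.27 to 1.12, edgeR, unadjusted p = 0.00245, adjusted p = 1). Ncapd2, a condensin subunit, was at 599, 533 and 491 CPM in V and at 377, 317 and 414 CPM in HxD (log2 0.55, interval 0.14 to 0.96). Rimbp2, a presynaptic scaffold gene, had the largest log2 difference, 2.54, but at 7.47 to 16.7 CPM in V and 0.0352 to 4.25 in HxD its interval ran from 0.71 to 4.37. Apex1, given above, was also in that group, and another 6 of its genes, Nek3, Magoh, Josd2, Mrps27, Ssbp4 and Sepp1, had log2 fold changes from 0.52 to 1.67. The genes of both directions followed the length gradient described above. Those lower in V had transcripts of 4010 to 15849 bases. Those higher in V were shorter than the median of 3243 bases over all genes tested, except Ncapd2 (4629) and Rimbp2 (6966). The part of length in their values was not tested beyond the fit with a length offset.

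Tet1 lies on chromosome 10, and the alleles were made in it, so its neighbours were read separately. Of 314 tested genes within 20 Mb, none had an unadjusted p under 0.05, the groups did not overlap in 29 (9.24%, beside 9.1% of all genes), and the median was 0.01.

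The genes that differed between KO and WT were also read in V and HxD. Their contrast did not use the V and HxD levels, but those libraries entered the same fit's filter and estimate of spread, so genes of low spread in V and HxD were favoured, and the counts below are a description only. In KO against WT, edgeR called 197 of 16166 genes (1.22%), 117 higher and 80 lower. Of the 117 higher genes, none was called in V against HxD, 105 had an interval within 2-fold (89.7%, beside 42.8% of all genes and 66.9% at 5 CPM or more) and 4 did not overlap (3.42%, beside 9.1%). Their median log2 fold change, V minus HxD, was 0.05. Of the 80 lower genes, 49 had an interval within 2-fold (61.3%) and 4 did not overlap (5%), with a median of -0.09. As median deviations from each gene's mean, the higher genes stood at 0.28, 0.06 and 0.09 in V and at -0.06, 0.12 and 0.18 in HxD. Those values lay between -0.92 to -0.37 in WT and 0.31 to 0.52 in KO, the groups that chose the genes. The lower genes stood at -0.51, 0.09 and 0.07 in V and at 0.08, 0.05 and -0.15 in HxD, so V1 lay within the KO range of -0.72 to -0.47 and the other 5 libraries did not.
Lamb2, a laminin subunit lower in KO, was at 14.8, 25.4 and 18.2 CPM in V and at 40.8, 33.8 and 27.7 CPM in HxD, without overlap (log2 -0.81, edgeR, unadjusted p = 0.0161, adjusted p = 1). Hmgn5, a nucleosome-binding protein gene higher in KO, was at 213, 78.9 and 122 CPM in V and at 62.6, 108 and 72.9 CPM in HxD, where V1 was the high one (log2 0.77, edgeR, unadjusted p = 0.00825, adjusted p = 1). These 2 were the members of either list with an unadjusted p under 0.05.

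**Figure D5:**
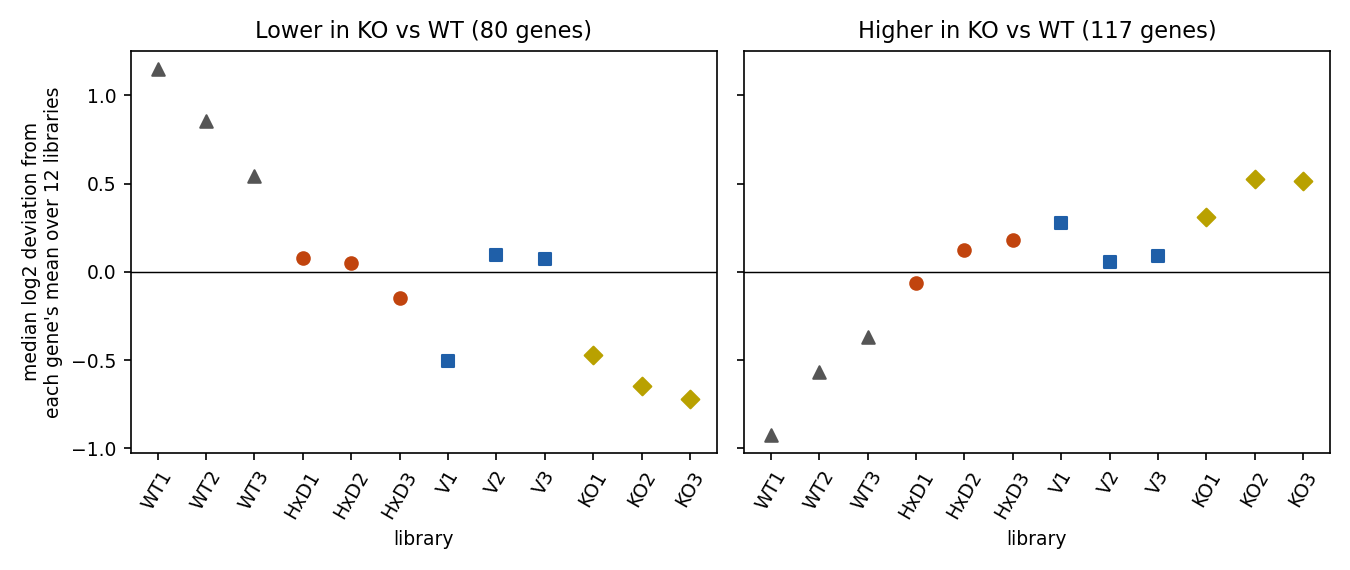
Median log2 deviation, from each gene's mean over 12 libraries, of the 80 genes lower and the 117 genes higher in KO than in WT, 1 point per library. The WT and KO points are apart because those libraries chose the genes; the V and HxD points lie between them and overlap, except that V1 lies among the KO points in the left panel and above the other V and HxD libraries in the right panel.

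Markers of other cell types were read as sums, of which single genes carried most in some lists. Summed markers of Sertoli cells reached 26.6 to 33.4 CPM in V and 14.4 to 29.7 in HxD, of which Aard made up 25.0 to 33.4 and 12.5 to 27.3 CPM, with Ptgds, Mro and Erbb4 at 0 in all 6 libraries. Stromal markers reached 14.2 to 24.9 and 9.58 to 21.2 CPM, with Gli1 at 0. Endothelial markers reached 163 to 265 CPM in V and 173 to 216 in HxD, with Emcn at 0. Pecam1, which germ cells also express, made up 140 to 245 CPM of that sum in V and 139 to 195 in HxD. Early response genes, which can follow dissociation of tissue, summed to 1730 to 1950 CPM in V and 1660 to 1900 CPM in HxD, sums carried mostly by Hspa5, Hsph1 and Jund. Gene by gene, 17 of the 22 had a positive log2 fold change, with a median of 0.37 (0.14 over the 14 at 5 CPM or more). The list's median deviations were 0.47, 0.25 and 0.24 in V and -0.42, 0.00 and 0.43 in HxD. HxD3 thus lay above V2 and V3, and HxD1, the library of the 6 with the most low genes at 0, was lowest. The groups did not overlap in 4 of the 22 (18.2%), beside 9.1% of all genes in either direction and 732 of 16166 genes with V higher. In these 4, Ier2, Egr1, Egr2 and Dnajb1, all V libraries were above all HxD libraries, and no member of the list was called. Egr1, the member with the largest log2 difference among those at 5 CPM or more, was at 38.4, 22.3 and 28.6 CPM in V and at 12.1, 6.92 and 18.5 CPM in HxD (log2 1.25, interval -0.14 to 2.64). The blood marker Hba-x was at 0, while Csf1r, a macrophage receptor, was at 5.05, 0.996 and 0.496 CPM in V and listed at 0 in HxD. Lefty2, a Nodal antagonist, was at 5.05, 1.56 and 0 CPM in V and at 0 in HxD. Both genes were therefore highest in V1, the library with the most blood markers, and the part of such cells in their values was not tested. DESeq2 called both, Csf1r with an adjusted p of 4.35e-11 and Lefty2 with one of 9.9e-08, and edgeR called neither. They were among the 15 DESeq2 calls at 0 in every V or every HxD library.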

How the data were processed

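Gene expression was measured by RNA sequencing of Oct4-GFP-sorted cells in 12 libraries, 3 each of V, HxD, WT and KO, grouped by the genotype in the labels. The deposited table holds raw whole-number counts by gene symbol, 35976 symbols in all. The submitters' processing notes list featureCounts 2.0.3, SAMtools 1.9, STAR 2.7.10b, Trim Galore 0.6.7 and FastQC. In the same notes, builds mm10 and GRCm39 are named without a role. Strandedness, gene annotation and the handling of multi-mapping reads are not given in the sources at hand, so genes with near-identical copies, overlapping genes and antisense pairs are uncertain. No molecular identifiers are described, so intervals cover the spread between libraries and not amplification.

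edgeR 4.0.16 in R 4.3.3 (TMM, default filterByExpr, quasi-likelihood F test, two-sided) was fitted once to the 12 libraries, with no term but group. The contrast was V minus HxD, with Benjamini-Hochberg adjustment over the 16166 genes kept. The standard error of a log2 fold change was the estimate over √F, and 95% intervals used the moderated degrees of freedom. The fit and its intervals were tested on simulated data. Deviations by library used log2 CPM with a prior count of 2. Transcript lengths came from GENCODE M21, for 98.8% of genes at 5 CPM or more, and promoters and positions from RefSeq tables of GRCm38.p6, for 76% and 96.6% of tested genes by symbol. Promoter quartiles used the window from 250 bases before to 50 after the start. The alternatives were DESeq2 1.42.0, limma-voom (limma 3.58.1), other filters, scalings and sets of libraries, a replicate block, and a length offset that was added after seeing the data.

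The 2 groups, the 31 gene lists, the anchor genes and the tests were chosen with earlier results of these data known. Named genes were Tet1, Tet2 and Tet3, the 12 genes in each direction with the smallest p among those without overlap and at 5 CPM or more in a group (predicted genes left out), the 2 members of each list with the smallest p, and anchor genes of germline, pluripotency, p53, methylation and imprinting. Other members of the lists are named as examples chosen after their values were seen. Results on a few of the genes chosen by this rule are not reported here.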

Additional observations from a re-analysis of the deposited data

How the results depend on the processing

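The count of called genes was 0 in edgeR's fit and stayed 0 with limma-voom, with DESeq2's size factors, at a mean of at least 5 CPM, with the V and HxD libraries alone, without HxD1 and V2, and with a length offset. DESeq2 called 17 genes, 15 of which were at 0 in every V or every HxD library. Without a filter on low counts 1 gene was called, and without HxD1, KO1 and KO3 there were 7. Leaving out 1 library at a time gave from 0 to 1 called genes, the 1 without HxD1. The count within 2-fold was 6927, between 6142 and 7306 with 1 library left out, and between 6180 and 8358 under the other alternatives. Replicate numbers were not treated as pairs. After the group means were removed, same-numbered V and HxD libraries correlated at -0.07, -0.11 and 0.05. Other pairs of a V and an HxD library correlated at -0.11 to 0.13. With 3 libraries per group, such correlations cannot show whether libraries shared a litter, day or batch. A replicate block gave 0 called genes and 6865 within 2-fold. Of 103 named genes, 21 changed sign or fell to 0 under some alternative, 7 of them at more than 1 SE from 0. Adgre1, Pou5f2 and Cdh5, all among those 7, fell to 0 without changing sign. List medians moved by more than their spread in 32 of 680 recomputations. The cause of these differences was not tested. Below 20 CPM the 95% interval was mostly too wide to lie within 2-fold. Above that level a 2-fold difference could still miss the adjusted threshold. Galnt11, at means of 44.5 CPM in V and 94.9 CPM in HxD, was not called by edgeR with all 12 libraries.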

Other observations

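The following genes, called by edgeR under some alternatives, were chosen after their values were seen. Mmrn2, an extracellular matrix gene of endothelial cells, was at 2.86, 0 and 2.13 CPM in V and at 29.2, 21.2 and 4.74 CPM in HxD, and it was the gene called without a filter on low counts (edgeR, adjusted p = 5.8e-05). It was also called without HxD1, KO1 and KO3 (edgeR, adjusted p = 0.000107). With the filter its log2 fold change was -3.48 with an unadjusted p of 0.00638 and an adjusted p of 1. Mios, a subunit of a nutrient-sensing complex, was at 87.8, 88.2 and 73.8 CPM in V and at 77.0, 33.6 and 25.4 CPM in HxD, where HxD1 lay among the V libraries. It was called by edgeR only in the fit that left out HxD1, KO1 and KO3 (adjusted p = 0.000189).

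The mitochondrial transcripts ND4 and ND5 varied widely within both groups. ND4 was at 437, 81.2 and 837 CPM in V and at 142, 734 and 942 CPM in HxD. ND5 was at 1510, 543 and 2080 CPM in V and at 1430, 2220 and 2910 CPM in HxD. V2 and HxD1, the libraries of the 6 with the most genes at 0, were lowest of their groups for both. With all 12 libraries the log2 fold change was -0.42 for ND4 (edgeR, unadjusted p = 0.405) and -0.66 for ND5 (edgeR, unadjusted p = 0.0371), both with an adjusted p of 1. Without HxD1, KO1 and KO3 both were called lower in V, at -0.88 and -0.89 (edgeR, adjusted p = 0.0122 and 0.00842).

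Genes on the X chromosome had a median log2 fold change, V minus HxD, of 0.04 over 586 tested members, of which 7 had an unadjusted p under 0.05 (1.19%, beside 2.02% of all genes) and 36 did not overlap (6.14%, beside 9.1%). The 13 tested interferon and innate immune genes had a median of 0.04 and the 25 glycolysis and hypoxia genes one of 0.03. Pfkm, a phosphofructokinase subunit, was at 72.7, 85.4 and 78.5 CPM in V and at 142, 110 and 97.2 CPM in HxD, without overlap (log2 -0.56, interval -1.02 to -0.11, edgeR, unadjusted p = 0.0168, adjusted p = 1).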
